A study of Mus musculus with 30 samples.

Results

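MicroRNA precursors known from liver, kidney and gut were followed across brain, heart, kidney, liver and spleen of mice with and without Ftsj1. They are Mir122, Mir192, Mir194-2, Mir194-1, Mir215 and Mir802, taken by symbol from the tables of the 5 organs, and they are 6 of 2194 named features in each table. Small RNA was sequenced from 6 male mice aged 4 months, which carried either the Ftsj1-deficient genotype, labelled Ftsj1_DF (3 mice), or the wild-type genotype, labelled WT (3 mice). Ftsj1 is the enzyme that methylates the ribose of nucleotides in the anticodon loop of certain tRNAs. Each organ gave 6 libraries, 3 per genotype, so there were 30 in all. The labels name 4 of the mice as brothers and the other 2 as brothers too, and each genotype held mice of both sets. The wild-type group of heart, kidney and liver included 1 library of a second batch. Each table gives 1 mean and 1 log2 fold change per feature and does not name the genotype in the numerator, so signs are given as deposited. A comparison of signs between organs assumes the same numerator in all 5 tables.

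MicroRNAs are short RNAs cut from a hairpin precursor, and they repress messenger RNAs that pair with their seed, the bases near the 5′ end. miR-122 is the abundant microRNA of hepatocytes, where it acts on cholesterol and lipid genes. miR-192, miR-194 and miR-215 are made from a pair of clusters, Mir194-2 with Mir192 and Mir194-1 with Mir215, which are expressed in liver, kidney and gut epithelium and can be induced by p53. miR-802 is known in liver, kidney, gut and pancreas and rises in the liver in obesity.

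The sequences show why the clusters are read as copies of each other. The set of RefSeq mature sequences used here covered 5 of the 6 members and had no entry for Mir122. Sequences are given 5′ to 3′ with the seed (bases 2 to 8) in capitals.
miR-192-5p: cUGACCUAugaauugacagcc
miR-215-5p: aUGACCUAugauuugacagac
miR-194-5p (both copies): uGUAACAGcaacuccaugugga
miR-194-2-3p: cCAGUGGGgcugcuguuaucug
miR-194-1-3p: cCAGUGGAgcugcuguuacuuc
miR-802-5p: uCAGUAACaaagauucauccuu
miR-192-5p and miR-215-5p were identical at 18 of 21 bases and had the same seed, which no other of the 1679 mature names in the table carried. Counted from the 5′ end of miR-192-5p, they differed by C1A, A12U and C20A, all outside the seed. The 5p arm of miR-194 was the same sequence in Mir194-2 and Mir194-1, so a read of that arm cannot be given to 1 copy by its sequence. The 3p arms of these copies differed by G8A, U19C, C20U and G22C, counted from the 5′ end of miR-194-2-3p, and the first of these lies in the seed. In the RefSeq annotation of GRCm38.p6, which is not the GRCm39 build the authors used, the hairpins of Mir194-2 (chr19:6264643-6264728) and Mir192 (chr19:6264844-6264932) lay 115 bases apart. The hairpins of Mir194-1 (chr1:185313319-185313385) and Mir215 (chr1:185313581-185313692) lay 195 bases apart. Mir802 lay at chr16:93369720-93369816, and all 5 hairpins were on the plus strand.

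Mean normalized counts summed to between 8511372 (heart) and 21787131 (kidney) per organ in the authors' deposited tables. Size factors, the relative depths of the libraries, were recovered from the lowest deposited means and ran from 0.500 to 2.37. In liver they separated the 3 libraries that raise a fold change, called the positive side, at 0.500 to 0.729, from the 3 that lower it, the negative side, at 1.45 to 2.15. The sides are the genotypes, but which is which is not given. Libraries could not be assigned to mice or to the second batch, so no within-batch value could be had, and batch and genotype cannot be told apart for that library. The tables do not read Ftsj1 mRNA, which leaves the genotype labels unchecked.

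The 6 members made up 33.8% of all normalized counts in liver and 2.63% in kidney, against 0.103% in brain, 0.166% in heart and 0.248% in spleen. Mir122 alone gave 26.2% of the liver total and was the most abundant feature there. Its share was 0.0588% in heart, 0.0389% in spleen, 0.0242% in brain and 0.0207% in kidney, so liver was 445 times the next organ. Outside liver its deposited means ran only from 3908 in brain to 5002 in heart, and the order of shares was the inverse of the organ totals. With median-of-ratios scaling kidney (3404) stood above brain (2199). Mir122 is the defining marker of hepatocytes, and it was highest in the organ labelled liver. Brain and kidney did not differ beyond the spread implied by their standard errors, a coefficient of variation of 31.0% and 33.2%. This implied value is the square root of the dispersion that gives the deposited standard error. It is a model value, not the spread measured between libraries. For Mir215 in heart it was 21.2%, while the recovered positive side had an SD of 22.1 on a mean of 351 normalized counts. In whole organs, fewer cells of a type and less RNA per cell cannot be told apart, and each table was normalized on its own, so levels across organs are a description without a test.

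**Figure D1:**
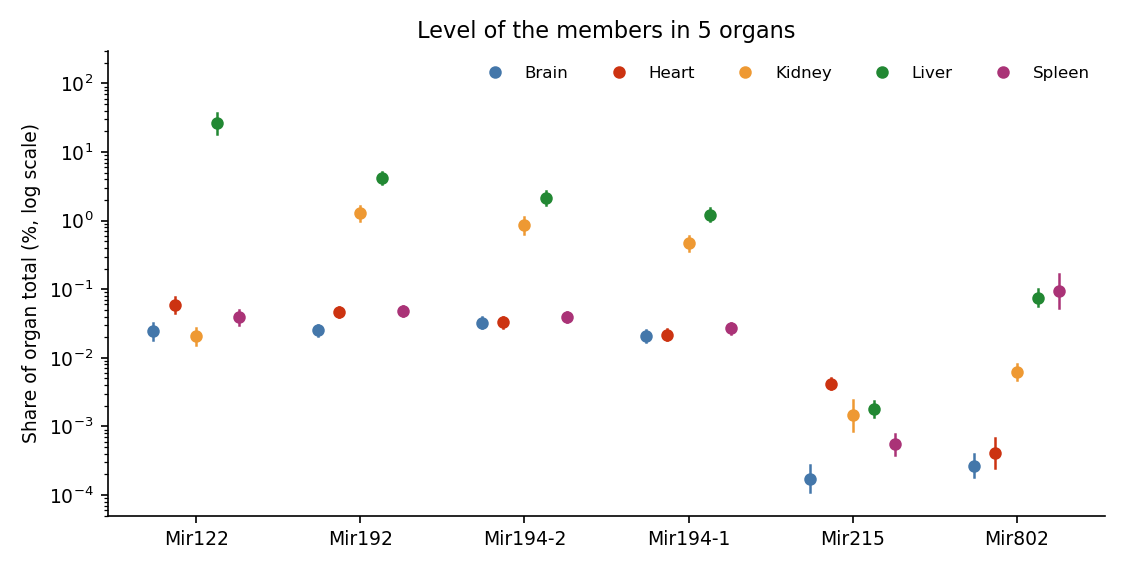
Share of the organ total (%, log scale) for each of the 6 members in 5 organs. Points are shares from the deposited means and bars span 1 coefficient of variation implied by the deposited standard error. Mir122 reaches 26.2% in liver, and Mir192, Mir194-2 and Mir194-1 are high in liver and kidney. Mir215 is highest in heart, and Mir802 is high in spleen and liver.

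The Mir194-2 and Mir192 cluster was high in both liver and kidney. Mir192 made up 4.22% of the liver total, rank 6 by mean, and 1.28% of the kidney total, rank 16. Its partner Mir194-2 made up 2.14% in liver and 0.855% in kidney. Their liver shares exceeded the kidney shares 3.30-fold and 2.50-fold, and kidney in turn exceeded spleen 26.3-fold for Mir192 and 21.7-fold for Mir194-2. In spleen, heart and brain Mir192 stood at 0.0487%, 0.0473% and 0.0251%. Spleen and heart did not differ beyond their spread for Mir192, and neither spleen and heart nor heart and brain did for Mir194-2.

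Of the second cluster, Mir194-1 followed Mir194-2 and Mir215 did not. Mir194-1 made up 1.22% in liver, 0.472% in kidney, 0.0269% in spleen, 0.0217% in heart and 0.0208% in brain, the same order of organs as for Mir194-2. Mir215, the seed-sharing relative of Mir192, was low in every organ and highest in heart, at 0.00421%. Its share was 0.00180% in liver, 0.00145% in kidney, 0.000547% in spleen and 0.000174% in brain. Liver and kidney did not differ beyond their spread for Mir215, while heart exceeded liver 2.34-fold. With Mir122 left out of the totals the ratio of heart to liver was 1.73, and with median-of-ratios scaling between the organs it was 1.17.

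The balance within each cluster shows the same contrast. The ratio of Mir194-1 to Mir194-2 stayed between 0.552 in kidney and 0.684 in spleen, a range of 1.24-fold over the 5 organs. How the authors placed reads of the common 5p arm is not given in the sources used here. Its part in this ratio, and in the others with Mir194-1 or Mir194-2, was not tested. The ratio of Mir192 to Mir194-2 ran from 0.766 in brain to 1.98 in liver. The ratio of Mir215 to Mir194-1, neighbours on 1 locus, ran from 0.00147 in liver to 0.194 in heart, a 132-fold range. Mir192 exceeded its seed-sharing relative Mir215 by 2342-fold in liver, 878-fold in kidney, 144-fold in brain, 89.0-fold in spleen and 11.2-fold in heart. A ratio of read counts between precursors is not a ratio of molecules, since sequences differ in how well they are ligated and mapped.

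**Figure D2:**
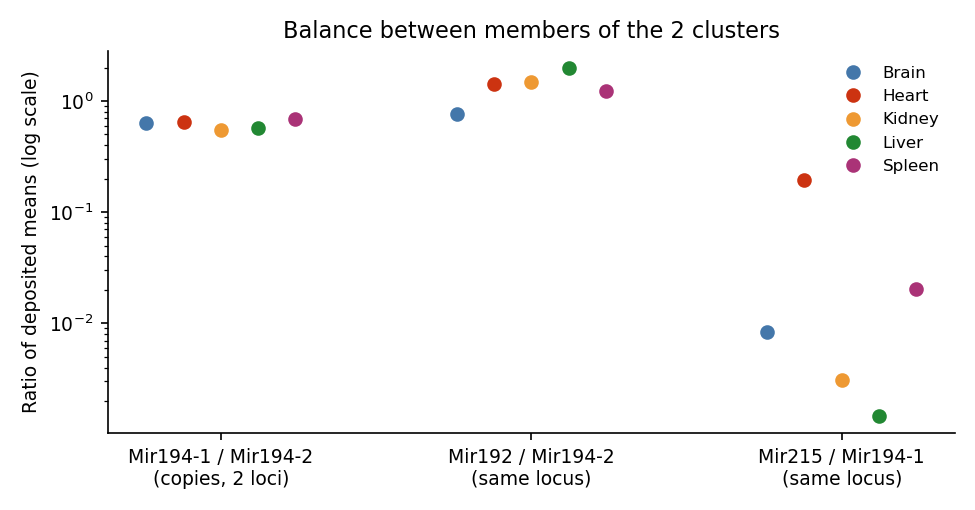
Ratio of the deposited means (log scale) of Mir194-1 to Mir194-2, Mir192 to Mir194-2, and Mir215 to Mir194-1 in 5 organs, 1 point per organ. The first ratio lies between 0.552 and 0.684, while the last runs from 0.00147 in liver to 0.194 in heart.

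Mir802 was split between liver and spleen. It made up 0.0938% of the spleen total, 0.0756% of the liver total and 0.00616% of the kidney total, and its share was 0.000408% in heart and 0.000268% in brain. Spleen and liver did not differ beyond their spread, since the implied coefficient of variation was 75.9% in spleen and 33.8% in liver. The order of these organs turned with the scaling: liver exceeded spleen 1.09-fold with Mir122 left out of the totals and 1.71-fold with median-of-ratios scaling. The deposited mean of Mir802 was 2.41 times that of Mir122 in spleen, against 0.298 times in kidney and 0.00289 times in liver.

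The standard error of Mir802 in spleen stood with those of pancreas microRNAs. Of 159 spleen features with a mean of at least 1000, the 4 largest standard errors of the log2 fold change in the authors' deposited table belonged to Mir375 (0.90), Mir802 (0.89), Mir216a (0.88) and Mir217 (0.80). The next, Mir429, had 0.38 in the authors' deposited table. Mir216a, Mir217 and Mir375 are known from the pancreas, which lies against the spleen in the body. The 4 pancreas markers, Mir216b included, made up 0.322% of the spleen total, 0.0439% of the liver total, 0.0269% in brain, 0.0151% in kidney and 0.00144% in heart. Mir375 alone made up 0.185% in spleen, 0.0283% in liver, 0.0227% in brain, 0.0149% in kidney and 0.00102% in heart. The sums in brain and kidney are thus mostly Mir375. In brain, heart and kidney Mir216b was listed at 0. Their part in the Mir802 level of spleen was not tested.

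**Figure D3:**
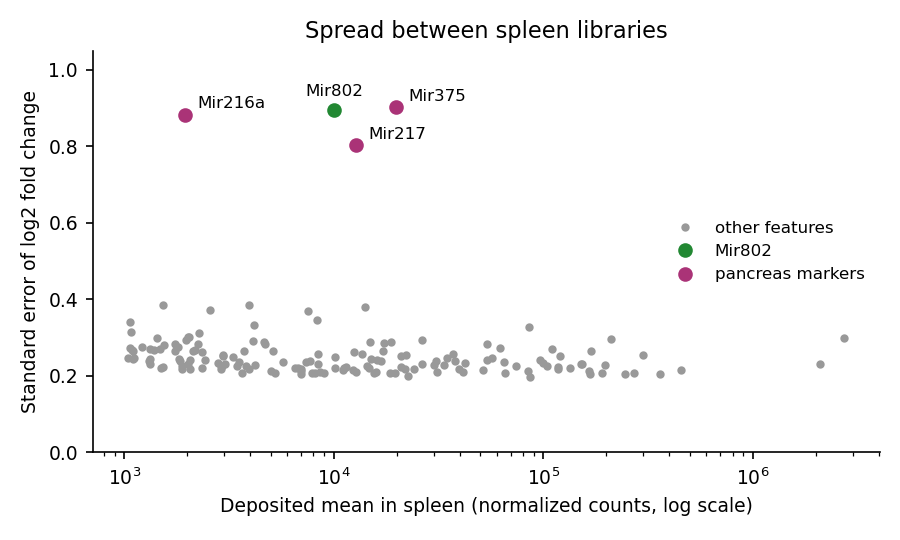
Standard error of the log2 fold change against the deposited mean (normalized counts, log scale) for the 159 spleen features with a mean of at least 1000. Mir802 (0.89) stands with the pancreas markers Mir375, Mir216a and Mir217, above the next feature at 0.38.

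The genotype contrast asked whether loss of Ftsj1 alters these microRNAs in each organ. None of the 6 members passed an adjusted p of 0.05 with DESeq2 in any of the authors' deposited tables. The count was 0 of 6 in liver, where 0.229% of 872 tested features passed, and 0 of 6 in kidney, where 0.0% of 1022 did. It was likewise 0 of 6 in heart against 0.361% of 1107, in brain against 0.0% of 1030 and in spleen against 0.0% of 1208. Only 355 of the 1107 heart features had an adjusted p, the 6 members among them, and the others could not pass. At an unadjusted p under 0.05, 1 member stood in liver against 3.9% of all features, and 2 in kidney against 4.5%. The counts were 0 in brain (2.23% of all features), heart (5.33%) and spleen (3.48%). These tests measure the spread between 3 mice per genotype.

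**Figure D4:**
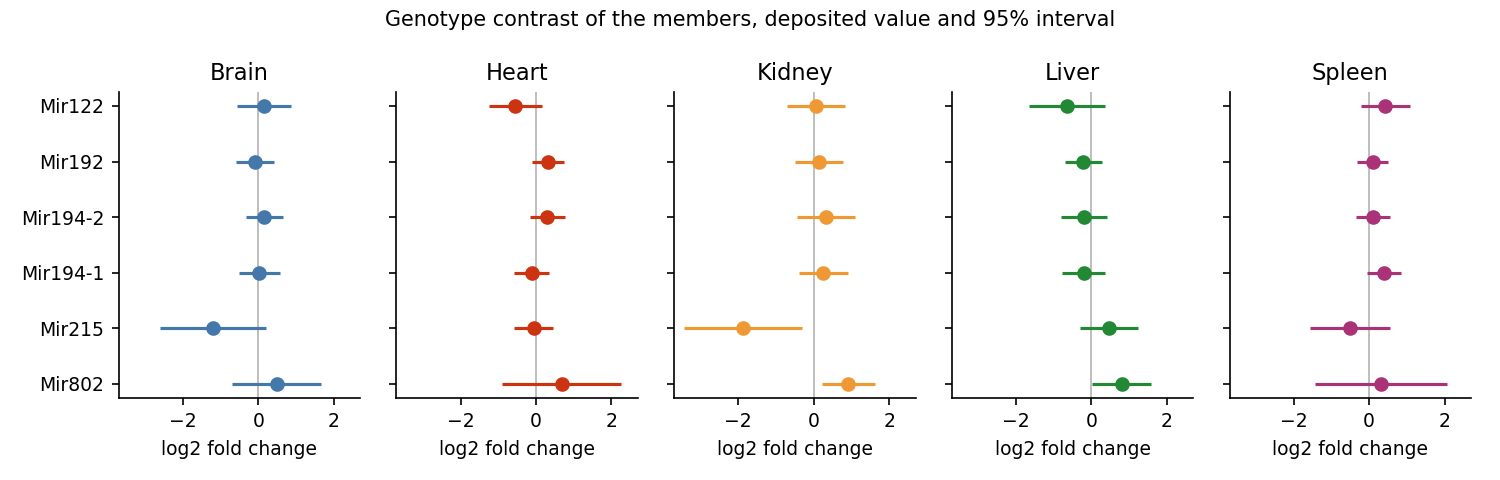
Deposited log2 fold change of the 6 members in each organ, with its 95% interval from the deposited standard error. Only Mir802 in liver, Mir802 in kidney and Mir215 in kidney have intervals that do not cross 0, and none passed the adjustment over all features.

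In liver, the hepatocyte microRNA Mir122 had a log2 fold change of -0.65 (SE, the deposited standard error, 0.51; DESeq2 adjusted p = 0.991) in the authors' deposited table. The mean and the fold change together give side means of 3855055 normalized counts on the positive and 6055335 on the negative side. The implied coefficient of variation was 43.5%, and the 95% interval of the log2 fold change, from -1.65 to 0.35, holds both directions. The cluster members were closer to 0: Mir192 had a log2 fold change of -0.22 (SE 0.25), Mir194-2 of -0.19 (SE 0.31) and Mir194-1 of -0.21 (SE 0.29) in the authors' deposited table. The Mir192 estimate was among the most precise of liver, since 137 of 138 features with a mean of at least 1000 had a standard error at least as large, Mir192 itself included. Its 95% interval ran from -0.71 to 0.27. The median over the 6 members was -0.20 in liver, beside 0.07 over all features, with 2 positive and 4 negative.

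In kidney the same cluster members had the opposite sign and again small values. Mir192 had a log2 fold change of 0.13 (SE 0.32), Mir194-2 of 0.33 (SE 0.39), Mir194-1 of 0.26 (SE 0.34) and Mir122 of 0.06 (SE 0.39) in the authors' deposited table. Side means were 291219 and 265650 normalized counts for Mir192 and 207368 and 165005 for Mir194-2, positive side first. All 4 of the 95% intervals held 0. The difference between liver and kidney was itself tested as the difference of the deposited log2 fold changes over their combined standard error. It was -0.35 (95% interval -1.15 to 0.45) for Mir192, -0.52 (-1.50 to 0.46) for Mir194-2, -0.47 (-1.34 to 0.41) for Mir194-1 and -0.71 (-1.98 to 0.55) for Mir122. These differences did not pass, and their intervals allow both equal contrasts and contrasts more than 1 log2 unit apart.

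In the other organs the 95% intervals of the abundant members also held 0. Mir122 had a log2 fold change of -0.54 (SE 0.36; DESeq2 adjusted p = 0.571) in heart and 0.43 (SE 0.33; adjusted p = 0.988) in spleen in the authors' deposited tables. Mir192 and Mir194-2 both stood near log2 0.3 in heart, at 0.31 (SE 0.22) and 0.29 (SE 0.24), while Mir194-1 stood at -0.11 (SE 0.24) in the authors' deposited table. In spleen Mir194-1 had the smallest p of the members, with a log2 fold change of 0.40 (SE 0.23; p = 0.0795, DESeq2 adjusted p = 0.988) in the authors' deposited table. The copy Mir194-2 had 0.11 (SE 0.23) there in the authors' deposited table. In brain Mir122, Mir192, Mir194-2 and Mir194-1 ran from -0.09 to 0.16 in the authors' deposited table.

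Mir802 had a positive log2 fold change in all 5 organs. In liver it was 0.80 (SE 0.40), which is 1.74-fold with a 95% interval from 0.02 to 1.58 on the log2 scale, and the authors' deposited table gives p = 0.0449 and a DESeq2 adjusted p of 0.991. In kidney it was 0.92 (SE 0.36), which is 1.89-fold with an interval from 0.22 to 1.62, and the authors' deposited table gives p = 0.0105 and a DESeq2 adjusted p of 0.685. The implied side means were 18181 and 10447 normalized counts in liver and 1755 and 928 in kidney, positive side first. It ranked 33 by p of 872 features in liver and 15 of 1022 in kidney, and neither value passed. The difference between liver and kidney was -0.12 (95% interval -1.17 to 0.93).

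In brain and heart Mir802 was low enough for its reads to be recovered per library. In brain its 266 reads gave 28.1, 33.4 and 45.9 normalized counts on the negative side and 27.5, 65.3 and 58.9 on the positive side. The positive side held the highest libraries and also the lowest, so the sides overlapped, and its mean was 1.41 times the other (log2 fold change 0.49, SE 0.60, in the authors' deposited table). In heart its 190 reads gave 3.50, 57.1 and 20.2 normalized counts on the negative side and 26.2, 41.9 and 59.5 on the positive side. These sides overlapped too, and the ratio of 1.58 moved to 3.58 without the negative-side library at 57.1 and to 1.10 without the one at 3.50. The spleen value was log2 0.32 (SE 0.89) in the authors' deposited table, the widest error of the members there.

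Pancreas markers were higher on the positive side in liver and, for Mir217, in kidney. In the authors' deposited table of liver, log2 fold changes were 6.52 for Mir216a, 6.55 for Mir217 and 5.42 for Mir375, beside a median of 0.07 over all features, and these 3 carried no p-value there. The Mir216a reads in liver gave 12.1, 0 and 6.89 normalized counts on the negative side and 2.74, 43.3 and 1698 on the positive side. One library, the shallowest of the organ, held 849 of the 913 reads, and the same library held all 9 reads of Mir216b. In kidney Mir217 gave 15.2, 0 and 25.5 normalized counts on the negative side and 47.4, 106 and 34.8 on the positive side. Those sides did not overlap, as was the case for 10.2% of the 88 kidney features with a mean of 20 to 60. The authors' deposited table of kidney gives Mir217 a log2 fold change of 2.22 (SE 1.07) and a DESeq2 adjusted p of 0.975. Mir375 and Mir216a in kidney had log2 fold changes of -0.47 (SE 0.34) and 1.27 (SE 2.55) in the authors' deposited table. In spleen the deposited sign was the other way: Mir216a at -0.66 (SE 0.88), Mir217 at -0.54 (SE 0.80), Mir375 at -0.23 (SE 0.90) and Mir216b at -0.66 (SE 1.83) were all negative in the authors' deposited table, while Mir802 was positive. Each of these spleen values, that of Mir802 included, was smaller than its standard error, so the signs are not established. Mir802 could not be resolved by library in liver, kidney or spleen, and the part of the pancreas markers in its contrast was not tested.

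Mir215 had the largest deposited fold change of the members, and 1 library decided it. In kidney the log2 fold change was -1.88 (SE 0.79; p = 0.0183, DESeq2 adjusted p = 0.754) in the authors' deposited table. The recovered reads gave 137, 73.6 and 1284 normalized counts on the negative side and 120, 183 and 104 on the positive side. The library at 1284 held 1009 of the 1701 reads (59.3%), and the other 5 libraries lay between 73.6 and 183 with the sides overlapping. The side means were 136 ± 41.7 (SD, n = 3) on the positive and 498 ± 681 (SD, n = 3) on the negative side. The ratio of the positive to the negative side was 0.272, and it reversed to 1.29 without that library. The library was not high throughout: it was the highest of the 6 in 6 of 88 kidney features with a mean of 20 to 60 (6.82%). Kidney is 1 of the organs with a library of the second batch, which could not be identified.

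In the other 4 organs the Mir215 libraries lay closer together. In brain its 170 reads gave 36.9, 53.4 and 27.0 normalized counts on the negative side and 16.1, 24.8 and 9.59 on the positive side. All negative-side libraries were higher than all positive-side libraries there, as the sides were apart in either direction for 16.3% of the 98 brain features with a mean of 20 to 60. The log2 fold change in brain was -1.20 (SE 0.71; p = 0.0916, DESeq2 adjusted p = 0.989) in the authors' deposited table, and the ratio of the sides ran from 0.328 to 0.526 as each library was left out. In liver the negative side gave 254, 369 and 236 normalized counts and the positive side 359, 338 and 490. The sides overlapped at 338 to 369, and the log2 fold change was 0.46 (SE 0.39) in the authors' deposited table.

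Heart, the organ with the highest Mir215 share, also had its most even libraries. They held 390, 387 and 321 normalized counts on the negative side and 328, 354 and 372 on the positive side. The log2 fold change was -0.06 (SE 0.26) in the authors' deposited table, with a 95% interval from -0.57 to 0.44. In spleen the negative side gave 65.2, 39.0 and 104 normalized counts and the positive side 65.1, 47.1 and 31.9. The spleen sides overlapped, and the ratio of 0.692 moved to 0.922 without the library at 104. Of the 7 pairs of a member and an organ with recovered reads, the sides were apart in 1, Mir215 in brain. Over features with a mean of 20 to 60 they were apart in 12.5% of 72 in heart, 12.7% of 79 in liver and 2.67% of 75 in spleen, beside the shares given above for brain and kidney. Mir215 lay above that range in heart (mean 359), liver (341) and kidney (317), so those shares come from features of lower mean.

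**Figure D5:**
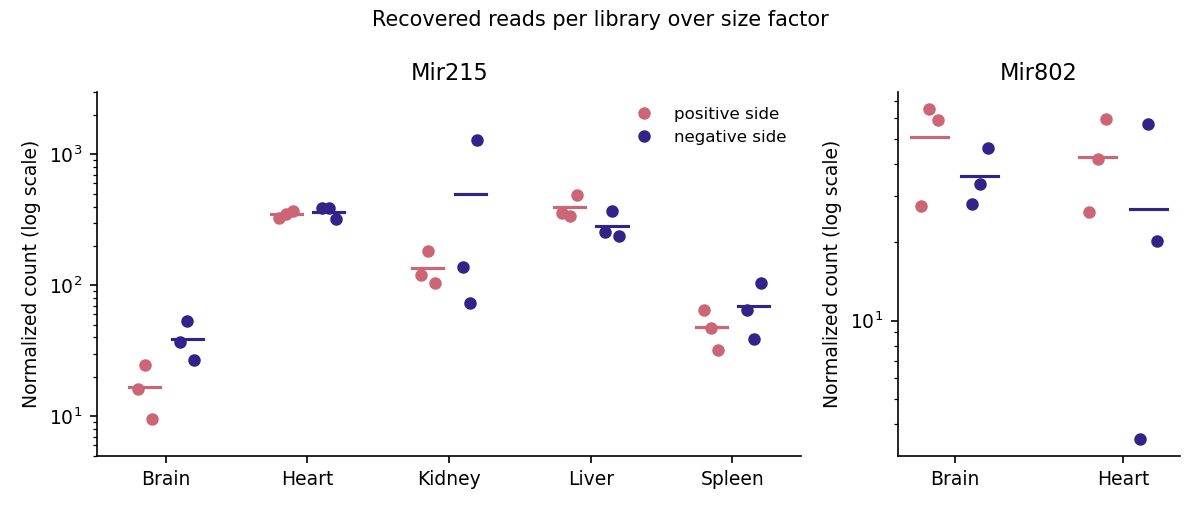
Normalized counts per library (log scale) recovered for Mir215 in 5 organs and for Mir802 in brain and heart, by side of the fold change; points are libraries and lines are side means. For Mir215 in kidney, 1 negative-side library at 1284 stands above the other 5, which lie between 73.6 and 183.

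The contrast of Mir215 was also compared between organs. Over the 7 pairs tested, 42 member differences were computed, and 3 had an unadjusted p under 0.05, all of them for Mir215. Liver minus kidney was 2.34 (95% interval 0.61 to 4.07), where 1.74% of 747 features had such a p and 0.134% passed the adjustment. Liver minus brain was 1.67 (95% interval 0.08 to 3.25), where 3.0% had such a p and 0.0% passed. Kidney minus heart was -1.81 (95% interval -3.45 to -0.17), where 2.05% had such a p and 0.0% passed. The adjusted p over all features was 0.996 or more for every member and pair, so 0 of 42 passed. Those 2 differences that include kidney rest on the fold change set by the library at 1284. No member had a p under 0.05 in liver minus heart (2.44% of features), liver minus spleen (3.16%), kidney minus brain (3.26%) or kidney minus spleen (4.09%), and 0.0% of features passed the adjustment in each of these.

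Likeness of level across the 5 organs was described by Pearson's r of the log2 share, among 380 features outside the members with a mean of at least 100 in some organ. With 5 points that share the normalization of each organ, these values carry no test. Mir122 was most like Mir1948 (r = 0.961), Mir7036b (0.918) and Mir101b (0.897), all highest in liver. Mir192 was most like Mir193a (0.968), Mir203 (0.966) and Mir455 (0.950), and both Mir194 copies were most like Mir193a, Mir203 and Mir365-1 (0.954 to 0.978). Mir215 was most like Mir126a (0.954), Mir378c (0.922) and Gm54396 (0.916), which were all highest in heart. Mir802 was most like Gm56154 (0.998), Mir3967 (0.996) and Mir21a (0.993). Among the members, r was 0.995 for Mir192 with Mir194-2, and 0.357 for Mir215 with its neighbour Mir194-1. The common 5p arm limits what the values of either Mir194 copy say of its own locus.

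Other microRNAs with related roles were counted from lists chosen by role. Of 9 microRNAs listed as abundant in hepatocytes, not all of them abundant in liver here, 8 had a statistic in liver. Of these 8, 4 were positive and 4 negative, with a median log2 fold change of 0.02 beside 0.07 over all features. None passed the adjustment, and 2 of the 8 had an unadjusted p under 0.05, beside 3.9% of all liver features: Mir193a at -0.72 (SE 0.34) and Mir455 at -0.87 (SE 0.43) in the authors' deposited table. Mir193a made up only 0.00612% of the liver total and Mir455 0.0512%. Of 7 epithelial and gut microRNAs, mostly of the miR-200 family, 5 were positive and 2 negative in liver (median 0.44) and 6 were positive and 1 negative in kidney (median 0.22, beside 0.04 over all features). None of these passed the adjustment, and Mir141 in kidney, at log2 0.95 (SE 0.46), had p = 0.0409 before adjustment in the authors' deposited table, 1 of 7 beside 4.5% of all kidney features. Of 9 microRNAs listed as kidney-enriched, not all of them highest in kidney here, 5 were positive and 4 negative in kidney. Their median was 0.04, and 0 had an unadjusted p under 0.05 in DESeq2.

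microRNAs that p53 induces, the stress factor that also acts on the Mir192 and Mir215 clusters, gave no common sign across organs. Of 6 listed, 0 were positive and 6 negative in liver (median -0.31, beside 0.07 over all features), and 3 were positive and 3 negative in kidney (median -0.02), with 0 at an unadjusted p under 0.05 by DESeq2 in either. In heart 3 were positive and 3 negative, and 2 of the 6 had an unadjusted p under 0.05, beside 5.33% of all heart features. They were Mir34b, with a log2 fold change of -2.23 (SE 0.60; DESeq2 adjusted p = 0.0226), and Mir34c, with -1.26 (SE 0.45; adjusted p = 0.131), in the authors' deposited table. Each listed feature was counted by itself, and features of a common locus were not merged, so the counts are not of independent loci. Mir34b passed the adjustment, as did 0.361% of all heart features. Only 355 of the 1107 heart features with a p-value had an adjusted p, so the others could not pass. Of the cluster members in heart, given above, Mir194-1 and Mir215 had the same sign as Mir34b, and Mir192 and Mir194-2 had the opposite sign.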

How the data were processed

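Per the labels' protocols, phenol-extracted RNA of powdered organs went into NEXTflex small RNA libraries. The submitters' processing notes name GRCm39, featureCounts in Subread 2.0.3, and DESeq2. Aligner, annotation, model and the rule for multi-mapping reads were not given in the sources used here.

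The authors deposited 1 table per organ. The deposited mean is a signal, counts divided by size factors and averaged over 6 libraries, per the file headers. The deposited fold change and standard error are on the log2 scale, and the Wald statistic is a score, per the file headers. Each deposited p-value, raw or adjusted, is that of the Wald statistic. The feature without a name (at most 1.82e-05% of a total) was left out, and 0 columns of samples were unused. The authors' DESeq2 p-values were used as deposited, since the tables hold no counts per library.

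The members and lists were chosen with earlier results of these data known. Named features are the 6 members, the 3 features most like each in level, and listed features with a p under 0.05 or that mark pancreas. The planned rule allowed at most 4 named per list. Mir429 in spleen was named after its values were seen. The marker lists other than pancreas touch no result.

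Shares are deposited means over the sum of named features. Likeness used log2(share in percent + 1e-06). Means under 1 are sums of whole reads over 6 size factors, and all such means were explained at a tolerance of 1e-11. Of the 20 ways to split 6 libraries into sides of 3, the one whose negative binomial fits met the deposited fold changes was used. Reads per library were then found for means under 400 at a relative tolerance of 6e-15 and, where several solutions remained, the one at least 10 times closer to the deposited fold change was taken. Side means of other members come from the mean and fold change. Side means worked out this way for Mir215 and Mir802, at means under 400, were within 0.804% of the recovered ones. The search for reads used the same mean and fold change, so this is no independent check. Organ differences are z-scores, two-sided, with Benjamini-Hochberg adjustment over all features, and treat the organs of the same mice as independent. Steps were tested on simulated data. Python 3.11.15, numpy 2.4.6, pandas 2.3.3 and scipy 1.17.1 were used.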

Additional observations from a re-analysis of the deposited data

How the results depend on the processing

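No paired analysis was possible because the tables hold no values per mouse. Under other adjustments and centring, all 120 alternative values of the member contrasts stayed above the threshold (adjusted p from 0.376 to 0.994). The count of members past it stayed 0 in every organ and pair of organs. Signs say nothing here, since the adjustments leave the log2 fold change unaltered and centring moved it by 0.0181 or less. Leaving out 1 library reversed Mir215 in kidney, with a ratio of the positive to the negative side of 0.191 to 1.29, where 1.29 is without the library at 1284 normalized counts. With median-of-ratios scaling between organs, the liver level over the kidney level became 2100-fold for Mir122 (1265-fold by share), 5.48 for Mir192, 4.15 for Mir194-2, 4.30 for Mir194-1 and 20.4 for Mir802 (12.3 by share). With Mir122 left out of the totals it was 4.47 for Mir192. Of the 3 features most like Mir122, 0 remained with a mean of at least 10 and 0 by Spearman's rho. By Spearman's rho 1 of 3 remained for Mir194-2 and 1 of 3 for Mir194-1; the cause was not tested. With 3 libraries per genotype, a permutation test of 3 against 3 cannot go below p = 0.1. Leaving out libraries could not be run for members with a mean above 400.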
